A study of Mus musculus with 12 samples.

Results

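The genes of the CatSper calcium channel were followed through both RNA-seq tables of the study. The 9 subunit genes Catsper1, Catsper2, Catsper3, Catsper4, Catsperb, Catsperd, Catsperg1, Catsperg2 and Catsperz were chosen by symbol, and all 9 were found among the 51826 entries of the sperm table and among the 23502 entries of the testis table. CatSper is the calcium channel of the sperm flagellum, which opens when the cell becomes alkaline and drives the hyperactivated beat needed for fertilization. CatSper1 to CatSper4 form the pore, and the proteins of Catsperb, Catsperd, Catsperg1 or Catsperg2 and Catsperz are auxiliary subunits that are assembled with it in the germ cell. Mature sperm transcribe little or nothing, so the RNA they hold is mostly left from the testis, and the genes are transcribed in spermatocytes and spermatids.

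The study asked what the related nuclear proteins Xap5 (gene Fam50a, on chromosome X) and Xap5l (gene Fam50b) do in male germ cells. Cauda epididymal sperm were taken at P56 from WT mice and from Xap5l KO mice, the KO being a global CRISPR/Cas9 deletion on C57BL/6J. The testes were whole testes of WT and Xap5 cKO mice at P16, where the floxed Xap5 allele is deleted by a Stra8-GFPCre knockin in the germ line. The study describes its controls for the cKO as Xap5 fl/Y males, while the sample labels write WT. Each group had 3 libraries. Nothing states that the libraries of a group came from separate animals, so p-values measure the spread between these libraries. WT and mutant were compared within a tissue only, because the tables were made separately.

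Library totals ranged from 38881197 to 52308452 counts in sperm and from 32251198 to 36759054 in testes. For Fam50b the WT sperm held 574, 440 and 419 counts, against 18, 23 and 8 after the KO. For Fam50a the WT testes held 819, 811 and 988 counts, against 673, 616 and 651 after the cKO, a log2 fold change of -0.33 (edgeR adjusted p = 0.0495), and whole testes also hold cells in which this Cre is not expressed. The pachytene markers used below were lower in WT testes replicate 3 than in the other WT testes. Between WT and Xap5l KO sperm, leaving out a single library changed the number of calls over all genes from 1589 upregulated to between 1 and 2402, and results in sperm are given below with that in view.

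The starts of the subunit genes are shown because some of the genes passed the filter on low counts at P16 and the others did not. Sequences are from RefSeq on GRCm38.p6, run 5′ to 3′ on the strand of the gene, and cover 250 bases before to 50 after the annotated start. A sequence was matched for 7 of the 9 genes, not for Catsper1 and Catsperg2. Catsper2 (chr2:121413743-121414042, minus strand) and Catsperb (chr12:101404423-101404722, plus strand) passed this filter. Catsper3 (chr13:55784329-55784628, plus strand) and Catsper4 (chr4:134227334-134227633, minus strand) did not. Catsperg1 is shown at the one of its 2 listed starts that holds a GC box (chr7:29210876-29211175, minus strand). Its other window (chr7:29213984-29214283), which includes the annotated 5′ end of the gene, holds none. Capitals mark the GC box GGGCGGG or its longer form GGGCGGGG, searched on both strands.
Catsper2: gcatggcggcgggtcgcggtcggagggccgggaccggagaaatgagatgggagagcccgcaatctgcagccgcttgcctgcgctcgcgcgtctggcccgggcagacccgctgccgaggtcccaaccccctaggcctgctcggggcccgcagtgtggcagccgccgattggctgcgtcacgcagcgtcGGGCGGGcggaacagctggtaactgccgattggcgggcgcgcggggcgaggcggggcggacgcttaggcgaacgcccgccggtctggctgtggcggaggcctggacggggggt
Catsperb: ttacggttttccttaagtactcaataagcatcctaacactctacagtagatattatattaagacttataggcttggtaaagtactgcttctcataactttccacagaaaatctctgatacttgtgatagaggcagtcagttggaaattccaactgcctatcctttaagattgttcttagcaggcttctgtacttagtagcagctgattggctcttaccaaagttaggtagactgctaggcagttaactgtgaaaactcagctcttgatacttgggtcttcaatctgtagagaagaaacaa
Catsper3: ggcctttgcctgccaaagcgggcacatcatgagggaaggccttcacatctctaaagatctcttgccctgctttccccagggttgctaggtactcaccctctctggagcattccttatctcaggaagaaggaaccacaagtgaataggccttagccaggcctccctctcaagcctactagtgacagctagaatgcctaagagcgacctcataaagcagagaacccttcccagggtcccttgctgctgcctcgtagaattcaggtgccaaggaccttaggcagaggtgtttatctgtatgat
Catsper4: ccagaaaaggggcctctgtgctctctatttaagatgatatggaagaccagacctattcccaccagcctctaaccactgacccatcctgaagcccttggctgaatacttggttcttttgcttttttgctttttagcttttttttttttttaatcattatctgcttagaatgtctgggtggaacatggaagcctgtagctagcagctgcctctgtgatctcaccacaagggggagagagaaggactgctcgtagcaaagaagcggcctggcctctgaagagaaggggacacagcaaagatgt
Catsperg1: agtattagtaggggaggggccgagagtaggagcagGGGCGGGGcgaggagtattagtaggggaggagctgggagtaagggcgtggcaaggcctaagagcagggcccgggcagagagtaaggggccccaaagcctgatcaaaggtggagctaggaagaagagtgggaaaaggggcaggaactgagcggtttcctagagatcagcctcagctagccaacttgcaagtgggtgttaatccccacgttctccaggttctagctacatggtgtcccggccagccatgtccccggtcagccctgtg

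The number of CpG dinucleotides in these windows was 41 for Catsper2, which is more than in 96.5% of the 32851 promoters in the RefSeq table, against a median of 7 over all promoters. It was 1 for Catsperb, 3 for Catsper3 and 2 for Catsper4, and the window of Catsperg1 held 9. Among the windows not shown, those of Catsperd held 29 and 12, that of Catsperz 9 and the other of Catsperg1 8. Catsperb passed the filter at P16 and Catsper3 and Catsper4 did not, so that CpG-poor starts occurred on both sides. All windows above the median of 7 belonged to genes that passed, and no window was matched for Catsper1. The 7-letter GC box, present in 25.6% of all promoters, was found in Catsper2 and in the shown window of Catsperg1. The 8-letter form, which contains the shorter one and is present in 17.6%, was found only in Catsperg1 among the 9 subunit windows. The cAMP-response half-site TGACGT, in 7.51% of all promoters on either strand, was found in Catsperd alone, and the forkhead letters TGTTTAC, in 3.65%, in none. An X-box consensus, the motif of RFX factors, matched both Catsperg1 windows and 34.7% of all promoters.

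Levels of different genes were compared as CPM (library-scaled counts after TMM normalization) divided by kilobases of annotated exon, here called the length-scaled level. In WT sperm the highest levels were those of Catsperz, at 29.1 ± 8.57 (SD, n = 3), and Catsperg1, at 27.7 ± 8.32. The libraries of these genes overlapped, and both lay above every other subunit in every WT library. The pore genes Catsper1, Catsper4 and Catsper2 followed at 7.64 ± 1.71, 6.61 ± 1.47 and 6.29 ± 1.11, with overlapping libraries. Catsperd at 5.36 ± 1.66, Catsperg2 at 3.91 ± 0.676 and Catsper3 at 2.88 ± 0.813 overlapped with their neighbours in this order. Catsperb was lowest, at 0.98 ± 0.307, with no overlap with Catsper3.

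In WT testes at P16 the order was different. Catsperz stood at a length-scaled level of 13.2 ± 6.85 (SD, n = 3), Catsperg1 at 9.49 ± 2.12, Catsper2 at 8.83 ± 2.1, Catsperg2 at 7.45 ± 2.89, Catsperd at 6.3 ± 3.21 and Catsperb at 2.89 ± 1.3, and each overlapped with the next. The other pore genes were near 0. Catsper1, which encodes a pore subunit without which sperm lack the channel, had no count in any of the 6 testis libraries, where 3 counts would be a length-scaled level of 0.0388 in WT. Counts of Catsper3 were 0, 10 and 0 for WT against 7, 25 and 0 for the cKO, and those of Catsper4 were 0, 0 and 4 against 0, 0 and 6. Catsper2 was thus the pore gene that supplied 97.9% to 100% of the summed level of the pore genes in WT testes, and it supplied 25.8% to 27.9% in WT sperm. These floors cover counting error only.

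**Figure D1:**
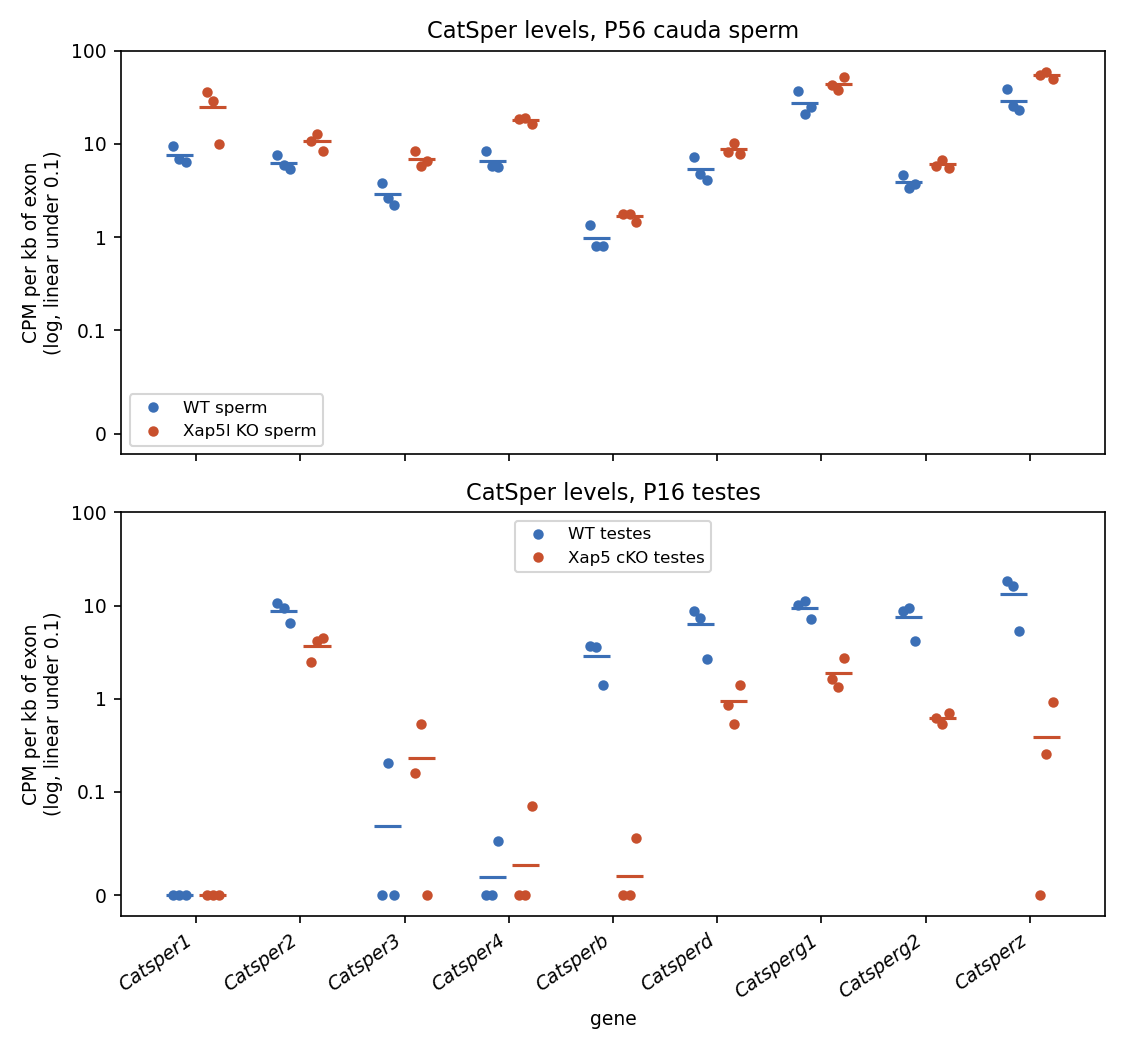
Length-scaled level (CPM per kilobase of exon, log axis that is linear below 0.1) of the 9 subunit genes in WT (blue) and mutant (orange) libraries, for P56 sperm above and P16 testes below. Points are libraries and lines are means of 3. All 9 genes lie higher in the 3 Xap5l KO sperm libraries, and Catsper1, Catsper3 and Catsper4 lie near 0 in testes.

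In Xap5l KO sperm, 3 of the 4 pore genes rose. Catsper1, Catsper3 and Catsper4 passed an adjusted p-value of 0.05 and a fold change above 2, and Catsper2 and the 5 auxiliary genes did not. Adjusted p-values are from the quasi-likelihood test of edgeR over the whole table. The background was 7.59% of 20945 tested genes upregulated and 1.27% downregulated. In all 9 genes each Xap5l KO library lay above each WT library in CPM, which held for 19.2% of all tested genes. The median log2 fold change of the 9 genes was 0.77, against -0.083 over all tested genes. None of the 9 was downregulated, whether by edgeR, by edgeR with unadjusted p-values or by DESeq2. In these bulk libraries, a change in the share of cells of a type cannot be told apart from a change of RNA per cell.

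Catsper1 had 21.0, 15.2 and 13.9 CPM in the WT libraries and 78.2, 63.2 and 21.6 CPM in the Xap5l KO libraries. Replicate 3 of the KO was well below the other KO libraries and only slightly above WT replicate 1. The log2 fold change of Catsper1 was 1.70 (standard error, SE, 0.412, edgeR adjusted p = 0.0314). Catsper4, which encodes another pore subunit, had 17.4, 12.3 and 11.9 CPM in WT and 38.7, 40.1 and 34.2 CPM in Xap5l KO sperm. Its KO libraries were close together, and its log2 fold change was 1.44 (SE 0.219, edgeR adjusted p = 0.0122). Catsper3 had 5.16, 3.59 and 3.02 CPM in WT and 11.4, 7.94 and 8.84 CPM in Xap5l KO sperm. The gap between its groups was clear but its counts were lower than those of the other pore genes, and its log2 fold change was 1.26 (SE 0.266, edgeR adjusted p = 0.021). Catsper2 had 27.8, 22.1 and 19.9 CPM in WT and 40.2, 47.3 and 30.9 CPM in Xap5l KO sperm. The groups were set apart by a small gap and the log2 fold change was 0.76 (SE 0.231, edgeR adjusted p = 0.0576), which missed both thresholds. DESeq2 gave Catsper2 an adjusted p of 0.0242 at a log2 fold change of 0.80, which also fell below the fold change threshold.

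Among the auxiliary genes, Catsperz, whose small cytoplasmic protein shapes the arrangement of the channel along the flagellum, had 49.1, 32.0 and 29.1 CPM in WT and 69.5, 74.4 and 62.7 CPM in Xap5l KO sperm. Its log2 fold change of 0.91 (SE 0.242, edgeR adjusted p = 0.041) passed the p-value threshold and not the fold change threshold. Catsperb, Catsperd, Catsperg1 and Catsperg2 encode transmembrane subunits with large extracellular domains. Their log2 fold changes lay between 0.62 for Catsperg2 and 0.77 for Catsperb, with adjusted p-values from edgeR of 0.0739 for Catsperb, 0.087 for Catsperd, 0.118 for Catsperg1 and 0.075 for Catsperg2. Catsperg1, the gene with most counts of the family, had 261, 148 and 177 CPM in WT and 305, 269 and 365 CPM in Xap5l KO sperm. The highest WT library was just below the lowest KO library. The summed length-scaled level of Catsper1, Catsper3 and Catsper4 made up 18.3% to 20.1% of that of the 9 genes in WT sperm and 33.3%, 29.5% and 20.8% in the Xap5l KO libraries.

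The calls in sperm changed when single libraries were left out. When replicate 2 or 3 of WT or replicate 2 of Xap5l KO was left out, none of the 9 genes was upregulated by edgeR, while 3 passed in each of these fits when p-values under 0.05 were taken without adjustment. In these 3 fits only 1 gene of the whole table was upregulated. The log2 fold changes of Catsper1, Catsper3 and Catsper4 there ranged from 1.10 to 1.63 (edgeR adjusted p = 0.0565 to 0.135), against 1.26 to 1.70 with all libraries. Without Xap5l KO replicate 1, Catsper4 alone kept its call. Without WT replicate 1 there were 5 upregulated genes and without Xap5l KO replicate 3 there were 4. Log2 fold changes over these 6 fits ranged from 1.34 to 2.16 for Catsper1, from 1.1 to 1.5 for Catsper3 and from 1.33 to 1.63 for Catsper4. DESeq2 on all libraries called the same 3 genes.

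**Figure D2:**
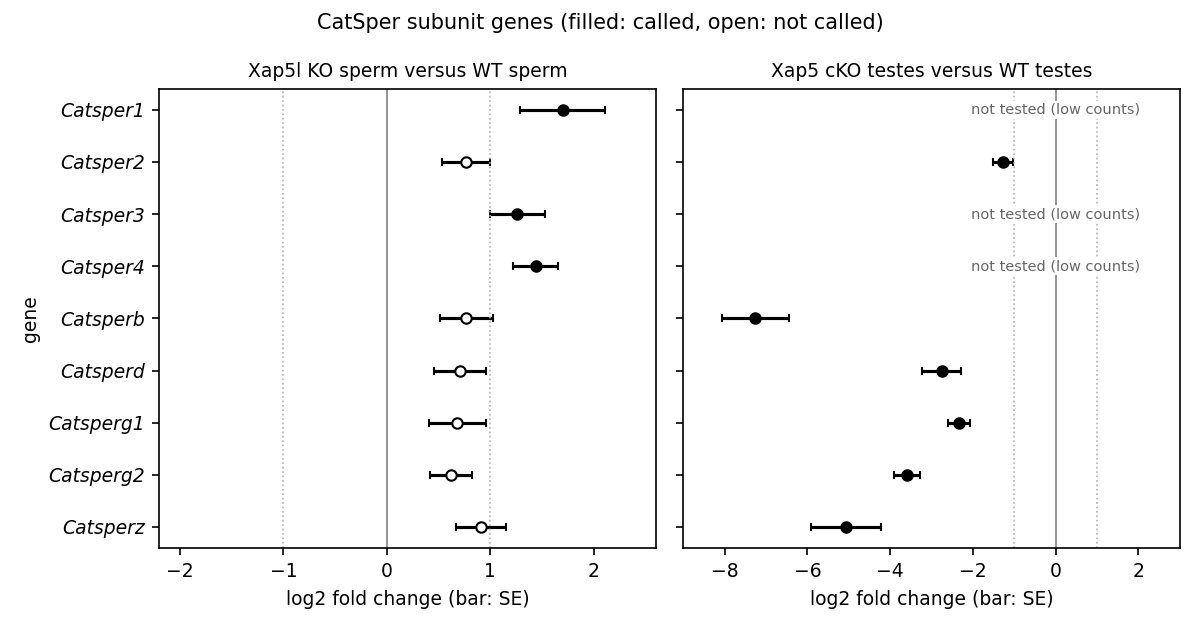
Log2 fold change (horizontal axis, bars are standard errors) of each subunit gene in Xap5l KO against WT sperm (left) and Xap5 cKO against WT testes (right). Filled points passed an adjusted p-value of 0.05 and a fold change above 2 (dotted lines). Filled points are Catsper1, Catsper3 and Catsper4 on the left and the 6 tested genes on the right.

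Markers of round spermatids moved with the subunit genes in sperm. Over all tested genes, 7.59% were upregulated and 1.27% downregulated in Xap5l KO sperm. All 6 of 6 round spermatid markers rose in Xap5l KO sperm, and their summed CPM was 96.4 to 136 in WT and 265 to 418 in Xap5l KO libraries. Actl7b was the most abundant of them. The ratio of the summed CPM of Catsper1, Catsper3 and Catsper4 to that of the round spermatid markers was 0.300 to 0.320 in WT and 0.307, 0.276 and 0.244 in the Xap5l KO libraries. For the other 6 subunit genes this ratio was 2.39 to 2.96 in WT and 1.18, 1.20 and 2.01 in Xap5l KO, so that these genes lay lower against the spermatid markers in each KO library. Of the pachytene spermatocyte markers, 2 of 6 rose, with a summed CPM of 1109 to 1932 in WT and 1785 to 2801 in Xap5l KO. Of the elongating spermatid markers, 1 of 10 rose, and the groups' sums overlapped. Markers of cells other than germ cells were also detected. Leukocyte markers, of which 2 of 7 fell, summed to 816 to 938 CPM in WT and 190 to 546 CPM in Xap5l KO, with Lyz2 the most abundant. Epididymal epithelium markers summed to 5864 to 7970 CPM and 4142 to 5777 CPM, with Crisp1 the most abundant, Lcn9 at 0 in every library and none of the 2 tested genes called by edgeR, with or without adjustment, and none by DESeq2 after adjustment, while 1 of 6 was higher in DESeq2 at an unadjusted p under 0.05. General epithelium markers summed to 244 to 279 CPM and 162 to 226 CPM, with none of 4 called by edgeR or DESeq2, with or without adjustment. Sertoli cell markers, of which 1 of 7 fell, summed to 639 to 759 CPM in WT and 1052 to 1329 CPM in Xap5l KO, most of it from Clu, and Leydig cell markers to 15.1 to 33.6 CPM and 7.24 to 14.7 CPM. The part of these cell types in the differences of the subunit genes was not tested.

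**Figure D3:**
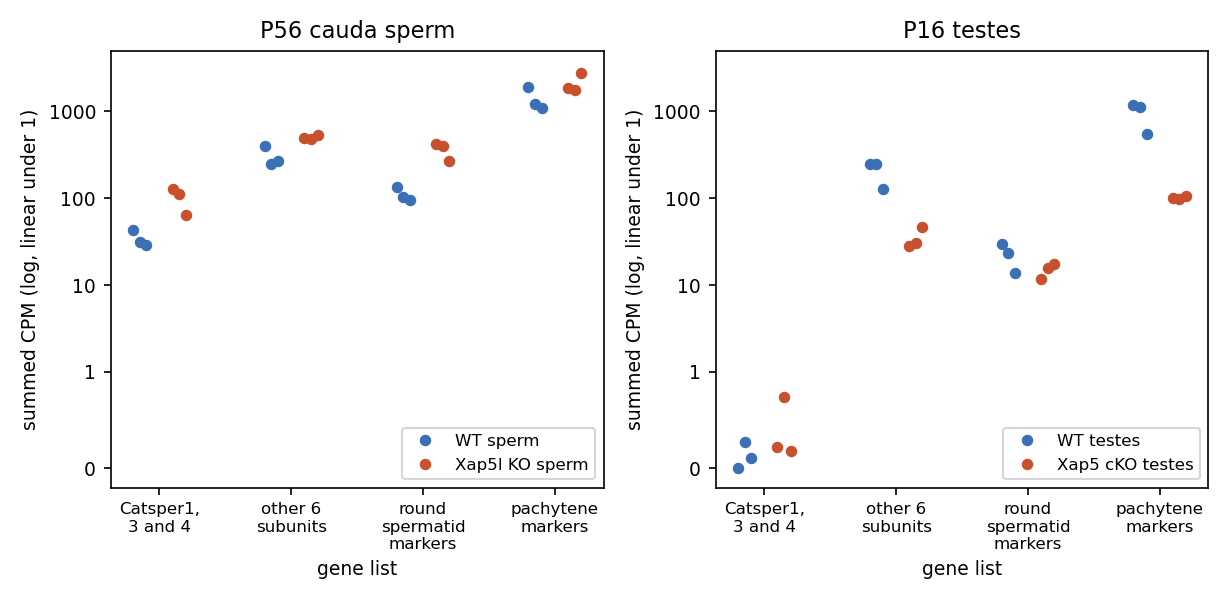
Summed CPM (log axis that is linear below 1) of Catsper1, Catsper3 and Catsper4, of the other 6 subunit genes, of 6 round spermatid markers and of 6 pachytene markers, in each WT (blue) and mutant (orange) library. In sperm the first 3 sums are higher in every Xap5l KO library, and in testes the other 6 subunits and the pachytene markers are lower in every Xap5 cKO library.

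In Xap5 cKO testes the subunit genes expressed at P16 fell. Catsper2, Catsperb, Catsperd, Catsperg1, Catsperg2 and Catsperz passed the filter on low counts, and all 6 were downregulated, where 10.9% of 16821 tested genes were downregulated and 4.15% upregulated. Catsperb and Catsperz passed the filter only through the WT libraries, which favoured a fall in the cKO among tested genes. Catsper2, Catsperd, Catsperg1 and Catsperg2 passed it in both groups. Each Xap5 cKO library lay below each WT library for all 6 genes, which held for 32.4% of all tested genes. Catsper1, Catsper3 and Catsper4 did not pass the filter. The log2 fold changes ranged from -1.26 for Catsper2 to -7.26 for Catsperb.

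Catsperb had 20.3, 20.0 and 7.67 CPM in WT testes. After the cKO it had 0, 0 and 10 counts, that is 0.304 CPM in replicate 3 and none in the others. Its log2 fold change was -7.26 (SE 0.817, edgeR adjusted p = 0.000106), and since counts in the mutant were so few, the fitted value depends on that single library and was -12.10 without it. Catsperz had 22.9, 20.2 and 6.75 CPM in WT and 0, 0.323 and 1.15 CPM in Xap5 cKO testes, with a log2 fold change of -5.06 (SE 0.844, edgeR adjusted p = 0.000912). WT replicate 3 was lowest among the WT libraries for both genes and still several times above the highest cKO library. Catsperd had 31.6, 26.7 and 9.64 CPM in WT and 3.08, 1.94 and 5.04 CPM in Xap5 cKO testes. This gave a log2 fold change of -2.75 (SE 0.471, edgeR adjusted p = 0.00106), with less than a 2-fold gap between the nearest libraries. Catsper2, the pore gene on at P16, had 39.2, 34.7 and 24.0 CPM in WT and 9.17, 15.2 and 16.4 CPM in Xap5 cKO testes. It kept the largest part of its WT level, with a log2 fold change of -1.26 (SE 0.243, edgeR adjusted p = 0.00208).

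Catsperg1 and Catsperg2 encode the paralogous gamma subunits and lie on the minus strand of chromosome 7, with a gap of 483183 bases between them. Catsperg1 had 71.1, 79.1 and 50.3 CPM in WT testes and 11.3, 9.42 and 19.0 CPM in Xap5 cKO testes, the log2 fold change being -2.33 (SE 0.265, edgeR adjusted p = 0.00011). Catsperg2 had 61.9, 66.2 and 29.0 CPM in WT and 4.38, 3.73 and 4.92 CPM in Xap5 cKO testes, the log2 fold change being -3.59 (SE 0.306, edgeR adjusted p = 3e-05). The share of Catsperg1 in the length-scaled level of the pair in testes was 53.4%, 54.4% and 63.4% for WT against 72.0%, 71.6% and 79.4% for the cKO. The groups did not overlap, with a difference in means of 17.3 percentage points and an exact two-sided permutation p of 0.1, the smallest that 3 libraries against 3 can give. In sperm the share was 86.2% to 88.8% in WT and 85.0% to 90.4% in Xap5l KO, a difference of 0.477 percentage points (exact permutation p = 0.9). Of the 50-base windows in Catsperg1 transcripts, 43% were also found in Catsperg2 transcripts, as were 13.1% of the 150-base windows, so that reads could have been split or lost between the paralogs, and the handling of such reads is not given in the sources used here.

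**Figure D4:**
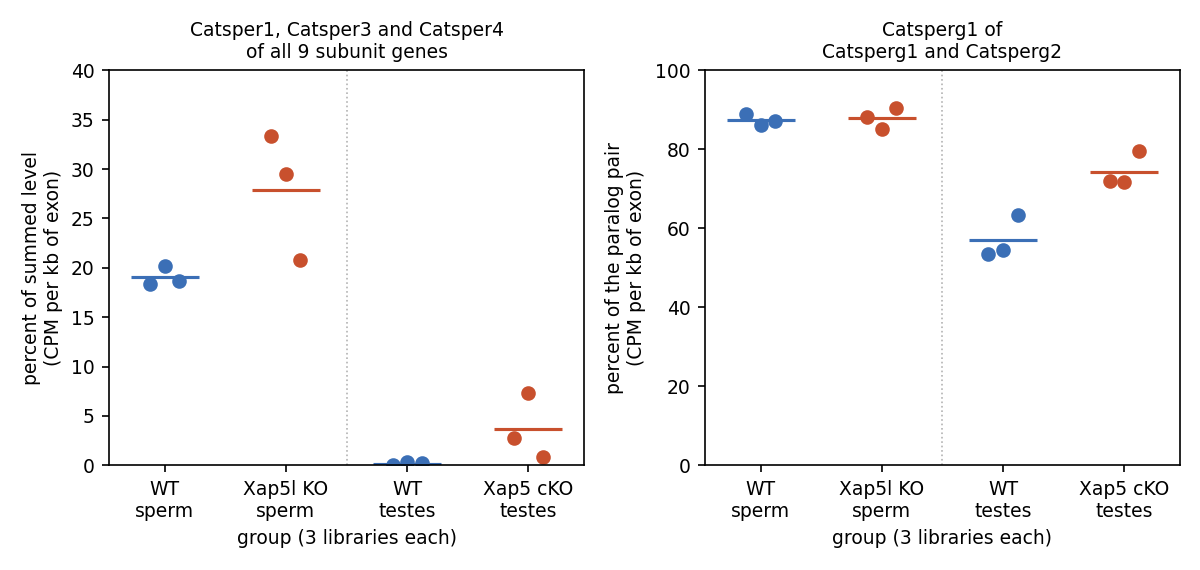
Left, the percent of the summed length-scaled level of the 9 subunit genes that belongs to Catsper1, Catsper3 and Catsper4. Right, the percent of Catsperg1 in the pair Catsperg1 and Catsperg2. Points are libraries and lines are means of 3, blue for WT and orange for mutant. The left share is at most 20.1% in WT sperm and at most 0.352% in WT testes, and the right share separates the testis groups and not the sperm groups.

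All 6 calls in testes were kept when any single library was left out. Among these 6 fits the log2 fold change of Catsper2 ranged from -1.44 to -1.04 and that of Catsperg2 from -3.88 to -3.39. For the marker counts that follow, 10.9% of all tested genes were downregulated and 4.15% upregulated. The loss of subunit transcripts moved with markers of pachytene spermatocytes, of which 4 of 6 fell (Pgk2 among them passed the filter only through WT), with a summed CPM of 545 to 1185 in WT and 97.3 to 106 in Xap5 cKO testes and Ldhc the most abundant. The ratio of the summed CPM of the subunit genes to that of the pachytene markers was 0.208 to 0.234 in WT and 0.277, 0.322 and 0.443 in the Xap5 cKO libraries. Leptotene and zygotene markers, of which 4 of 5 fell, summed to 636 to 756 CPM and 380 to 533 CPM, and spermatogonial markers, of which 2 of 7 fell, to 719 to 818 CPM and 467 to 508 CPM. Sertoli cell markers summed to 4140 to 4547 CPM in WT and 7110 to 8750 CPM in Xap5 cKO testes, with Clu the most abundant. None of 7 was called by edgeR, with or without adjustment, or by DESeq2. In 6 of them each cKO library lay above each WT library, and the share of all tested genes for which this held was not counted. Their log2 fold changes of 0.54 to 0.96 were below the threshold, with adjusted p-values from edgeR of 1.09e-05 to 0.000178. Leydig cell markers, of which 2 of 5 rose, summed to 177 to 302 CPM and 312 to 659 CPM. Leukocyte markers, of which 4 of the 5 tested rose, summed to 70.7 to 105 CPM and 154 to 202 CPM. S100a8 and S100a9 were at 0 in every library. Round spermatid markers were low in both genotypes, at 13.9 to 29.4 and 11.7 to 17.7 CPM, and 1 of the 4 tested fell. This was Actl7b, with 15.4, 12.6 and 6.59 CPM for WT against 0, 0.470 and 0.121 CPM for the cKO and a log2 fold change of -5.82 (edgeR adjusted p = 0.000167), and it was named after its values were seen. It too passed the filter only through the WT libraries. Tsga8 went the other way, with each cKO library above each WT library and a log2 fold change of 1.21 (edgeR adjusted p = 0.0517). Spaca1 was at 0.44 and Izumo1, which passed only through WT, at -1.45, and neither was called. DESeq2 called 1 of 6 round spermatid markers higher and 1 lower. The part of these cell types in the fall of the subunit genes was not tested.

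The calls in sperm were set beside the state of the genes at P16. The 3 subunit genes that rose in Xap5l KO sperm were those that did not pass the filter in testes, and of the 6 that did pass, none was upregulated in sperm. Each KO library lay above each WT library for these 6 as well, at log2 fold changes of 0.62 to 0.91, below the threshold. Without WT replicate 1, Catsperz at 1.16 (edgeR adjusted p = 0.0276) and Catsperb at 1.04 (edgeR adjusted p = 0.0301) were also upregulated. Without Xap5l KO replicate 3, Catsperz was at 1.05 (edgeR adjusted p = 0.0233). Of the 20945 genes tested in sperm, 15551 had an entry of the same symbol in the testis table. Among them, 375 of 1592 (23.6%) that did not pass the filter in testes were upregulated, with a median log2 fold change of 0.52, against 763 of 13959 (5.47%) that did, with a median of -0.18. Of the other 5394 genes, 451 (8.36%) were upregulated. These are counts and not a test, and the calls in sperm were lost without single libraries as given above.

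Proteins that assemble with the channel are encoded by Catspere1, Catspere2, Efcab9, Tmem249, Slco6c1, Tmem262 and C2cd6. In Xap5l KO sperm 3 of the 6 genes tested rose and none fell, where 7.59% of all tested genes were upregulated and 1.27% downregulated. Here and for the ion genes and the testis comparison, edgeR with unadjusted p-values and DESeq2 gave 0 genes in the other direction as well. Efcab9, whose calcium-binding protein pairs with that of Catsperz, had 11.2, 7.30 and 7.88 CPM in WT and 29.9, 27.6 and 20.8 CPM in Xap5l KO sperm, giving a log2 fold change of 1.57 (SE 0.243, edgeR adjusted p = 0.0125). Slco6c1, a transporter found with the channel, and C2cd6, which encodes a protein needed to carry the channel to the flagellum, had log2 fold changes of 1.63 (edgeR adjusted p = 0.0161) and 1.29 (edgeR adjusted p = 0.0291). A second sperm entry under a former name of C2cd6, Als2cr11b, overlapped between the groups, with a log2 fold change of 1.12 (edgeR adjusted p = 0.115). Tmem262 was at 0.94 (edgeR adjusted p = 0.0722). The epsilon genes did not move with the rest. Catspere1, found under its older symbol Catspere, had 3.70, 3.26 and 2.12 CPM in WT and 2.57, 1.93 and 2.16 CPM in Xap5l KO sperm (log2 fold change -0.44, adjusted p = 0.308 from edgeR), and Catspere2, found as Gm16432, was at -0.045 (edgeR adjusted p = 0.906). Tmem249 was not analysed in sperm.

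In Xap5 cKO testes 4 of the 6 associated genes tested fell and none rose, where 10.9% of all tested genes were downregulated and 4.15% upregulated. Catspere1 and Slco6c1 passed the filter only through the WT libraries, so that among tested genes they had to be lower in the cKO. Counts of Catspere1 were 969, 1100 and 346 for WT against 0, 7 and 7 for the cKO, and the log2 fold change was -7.31 (edgeR adjusted p = 4.46e-05). Counts of Slco6c1 were 780, 665 and 186 for WT, and no cKO library had any, at least 171-fold lower when each cKO library is set to 3 counts. C2cd6 fell by 4.63 on the log2 scale (edgeR adjusted p = 1.96e-05) and Catspere2 by 3.0 (edgeR adjusted p = 3.12e-05). Efcab9 was low in both genotypes, at 1.06 to 1.79 CPM in WT and 1.12 to 1.79 CPM in Xap5 cKO testes, and the log2 fold change of Tmem262 was -0.50 (edgeR adjusted p = 0.475). Tmem249 had at most 8 counts in any testis library and was not tested. GENCODE lists Catspere1 as an unprocessed pseudogene, and 25.1% of its 50-base windows also occur in Catspere2.

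Sperm ion and pH genes were taken as the setting in which the channel works. In Xap5l KO sperm 4 of 8 rose and none fell, against 7.59% upregulated and 1.27% downregulated over all tested genes. Lrrc52 and Kcnu1, which encode the subunits of the sperm potassium channel, had log2 fold changes of 1.71 (edgeR adjusted p = 0.026) and 1.55 (edgeR adjusted p = 0.0139). Slc9c1, the sperm sodium-proton exchanger, was at 1.52 (edgeR adjusted p = 0.0165), and Atp1a4, the testis sodium pump subunit, at 1.44 (edgeR adjusted p = 0.0148), with 199 to 259 CPM in WT and 554 to 730 CPM in Xap5l KO. Adcy10, the soluble adenylyl cyclase, was at 0.91 (edgeR adjusted p = 0.045), below the fold change threshold. The proton channel gene Hvcn1 at -0.26, the calcium pump gene Atp2b4 at -0.45 and the progesterone-responsive lipase gene Abhd2 at -0.34 had adjusted p-values from edgeR of 0.441, 0.227 and 0.274. As for the subunits, none of these 3 and 4 rises of the associated and ion genes kept its call when replicate 2 or 3 of WT or replicate 2 of Xap5l KO was left out. In these 3 fits only 1 gene of the whole table was upregulated. The 7 log2 fold changes there ranged from 1.09 to 1.69, with adjusted p-values from edgeR of 0.0565 to 0.133, against 1.29 to 1.71 with all libraries.

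In Xap5 cKO testes 2 of the 6 ion and pH genes tested fell and none rose, against 10.9% downregulated and 4.15% upregulated over all tested genes. Slc9c1 passed the filter only through the WT libraries, so that among tested genes it had to be lower in the cKO. Counts of Slc9c1 were 635, 573 and 156 for WT against 0, 15 and 4 for the cKO, and the log2 fold change was -6.06 (edgeR adjusted p = 0.000315). Adcy10 fell by 2.94 on the log2 scale (edgeR adjusted p = 0.000187). Kcnu1 at -0.19, Hvcn1 at 0.37, Atp2b4 at -0.15 and Abhd2 at 0.44 were not called. Lrrc52 and Atp1a4 had at most 6 and 3 counts in any testis library and were not tested. These 2 genes, like Catsper1, had almost no transcript at P16 and rose in Xap5l KO sperm. The other associated and ion genes that rose in Xap5l KO sperm, Efcab9, Slco6c1, C2cd6, Slc9c1 and Kcnu1, did pass the filter in testes. Efcab9 and Kcnu1 were low there, while WT counts were 780, 665 and 186 for Slco6c1 and 3164, 2912 and 1368 for C2cd6. A rise in Xap5l KO sperm was thus not limited to genes with almost no transcript at P16.

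**Figure D5:**
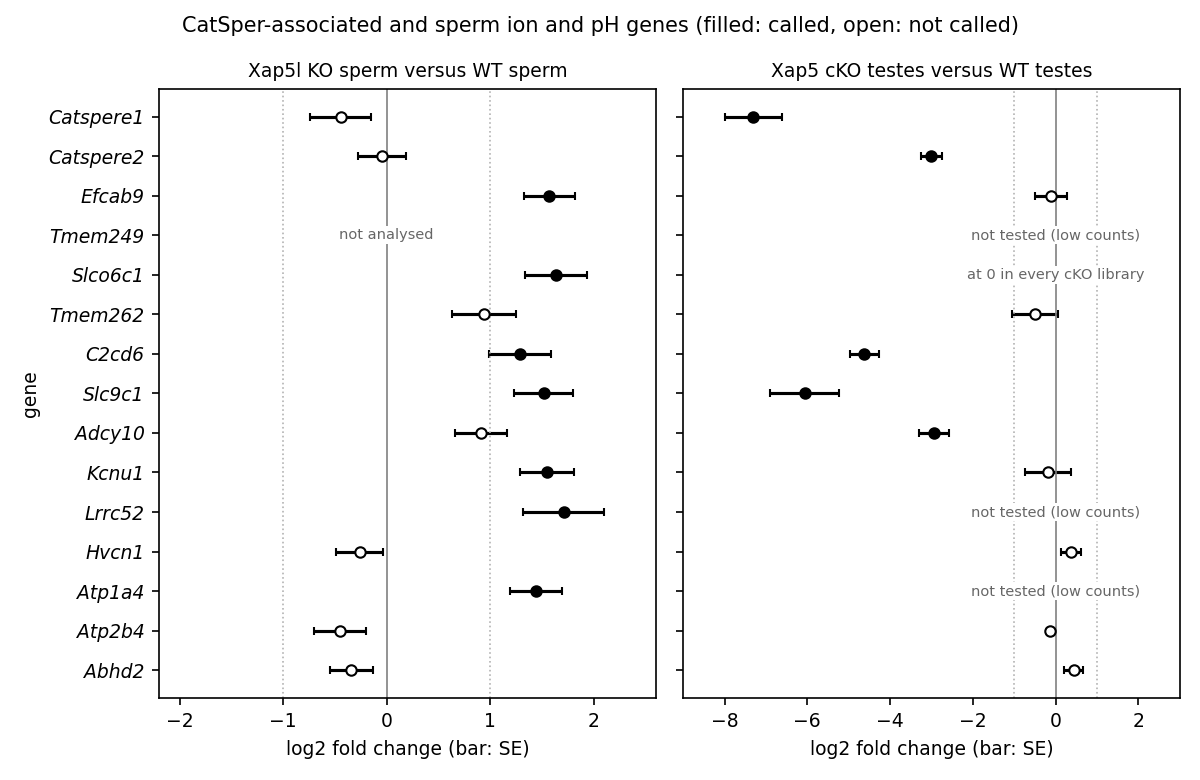
Log2 fold change (horizontal axis, bars are standard errors) of CatSper-associated genes (Catspere1 to C2cd6) and sperm ion and pH genes (Slc9c1 to Abhd2), for Xap5l KO against WT sperm (left) and Xap5 cKO against WT testes (right). Filled points were called. In sperm the filled points are to the right, at 1.29 to 1.71, and in testes to the left, at -7.31 to -2.94, with Slco6c1, which was also called, not plotted because every cKO library had 0 counts.

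Several overlaps bear on how the counts of these genes can be read. Exons of Catsperz share 587 bases with the potassium channel gene Kcnk4 on the same strand, and Kcnk4 had 0 to 6 counts in sperm and 4 to 21 in testes. Exons of Catsper2 share 18 bases with Pdia3 on the opposite strand, and those of Hvcn1 share 1574 bases with Tctn1 on the opposite strand. Use of strand in counting is not given in the sources used here.

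The genes most like the subunits were sought over the 12 libraries with a mean profile of the 6 subunit genes tested in both tables. Of the 13959 genes tested in both, the 5 with the highest lower value of Pearson's r over the 6 sperm and the 6 testis libraries were Acot7 with 0.993, Adam5 with 0.990, Pcsk4 with 0.989, Pdzd9 with 0.987 and Dcaf6 with 0.986. The correlations are descriptions, since the 6 libraries of a table fall into 2 genotypes and share their scaling. All 5 genes were downregulated in Xap5 cKO testes, with log2 fold changes from -7.19 for Adam5, which encodes a testis ADAM protein, to -1.14 for Dcaf6. The direction in both tissues came with the choice of these genes. The 6 genes of the profile all lay higher in Xap5l KO sperm and all fell in Xap5 cKO testes, where 10.9% of tested genes were downregulated. Among these 6, Catsperb and Catsperz passed the testis filter only through WT, which favoured their fall. In Xap5l KO sperm Pcsk4, a sperm proprotein convertase, was upregulated with a log2 fold change of 1.22 (edgeR adjusted p = 0.0311), and the other four were not called, with log2 fold changes from 0.32 to 1.0.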

How the data were processed

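RNA-seq of sperm and testes was analysed from 2 tables of whole-number counts per gene, which the authors deposited without normalization, 1 per tissue, with 3 libraries per group. Per the methods and the submitters' processing notes, poly(A) RNA was sequenced as paired-end reads of 150 bp, checked with FastQC 0.11.2, trimmed with Trimmomatic 0.36, mapped to GRCm38/mm10 with HISAT2 2.1.0 and tested with DESeq2 1.12.4. The counting tool, the handling of multi-mapped reads and the use of strand are not given in the sources used here.

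Groups were taken from the sample labels. For each table as a whole, low counts were removed by filterByExpr, TMM factors were computed, and the quasi-likelihood test of edgeR compared the genotypes without further terms. The p-values were adjusted by Benjamini-Hochberg over all genes tested. A call needed an adjusted p below 0.05 together with a fold change above 2. CPM were scaled by TMM. Lengths and overlaps came from GENCODE M21 on GRCm38. For lower bounds, libraries at or under 3 counts were set to 3. With 3 libraries against 3, an exact permutation test cannot go below p = 0.1.

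The members, gene lists and tests were chosen with earlier results of these data known. Named were all 9 subunit genes, the associated and ion genes in a table, Fam50a and Fam50b, and the 5 genes with the most similar profile. Of the marker lists, the most abundant gene or those at 0 were named (the Leydig list by sums only). Pgk2 and the 4 round spermatid markers tested in testes were named besides, after their values were seen. Genes that overlap a subunit gene were named after their counts were seen. Alternatives were RLE size factors, library size alone, no filter, at least 10 counts in every sample, DESeq2, a replicate block, no fold change threshold, each library left out, entries of a gene summed, the gamma paralogs summed and, added after seeing the data, unadjusted p-values. The script was tested on simulated data. Software was R 4.3.3, edgeR 4.0.16, DESeq2 1.42.0, Python 3.11.15, pandas 2.3.3 and matplotlib 3.10.9.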

Additional observations from a re-analysis of the deposited data

How the results depend on the processing

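In sperm, 3 subunit genes were upregulated under RLE size factors, library size alone, no filter, at least 10 counts in every sample, DESeq2, the replicate block, unadjusted p-values, entries of a gene summed and the gamma paralogs summed, and 4 without a fold change threshold, where Catsperz was added. With 1 library left out, the number upregulated ranged from 0 to 5 for the subunit genes, from 0 to 4 for the associated genes and from 0 to 5 for the ion and pH genes, and the number downregulated was 0 to 0 in all 3 lists. In testes, with 1 library left out, the number downregulated was 6 to 6 for the subunit genes, 4 to 4 for the associated genes and 2 to 2 for the ion and pH genes, and 0 to 0 rose. With at least 10 counts in every sample, 4 subunit genes, 2 associated genes and 1 ion gene fell in testes, because fewer genes were tested. With 1 library left out, the log2 fold change in testes ranged from -0.33 to 0.049 for Efcab9 (0.043 without WT replicate 1) and from -0.85 to 0.22 for Kcnu1 (0.16 without Xap5 cKO replicate 1), neither of them called. In sperm, Catspere2 was at 0.017 without a filter and at -0.12 to 0.078 with 1 library left out, and was not called. The labels do not say whether replicate numbers pair the samples. The deviations of same-numbered libraries correlated at 0.145, -0.021 and -0.0698 in sperm and at 0.0111, -0.0124 and -0.00251 in testes. Those of differently numbered libraries correlated at -0.129 to 0.163 in sperm and at -0.0312 to 0.0358 in testes. With so few libraries these values cannot settle whether the samples were paired. With the replicate block, 3 subunit genes rose in sperm and 6 fell in testes, and calls over all genes in sperm went from 1589 to 1147 upregulated and from 267 to 147 downregulated. Depth limits statements on Catsper1, Catsper3 and Catsper4 at P16, where at most 25 counts were seen in a library. The causes of the differences between settings were not tested.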

Other observations

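Fam50b, the gene of Xap5l, also fell in the testis comparison. Its counts were 532, 539 and 197 for WT against 6, 0 and 7 for the cKO, and the log2 fold change was -6.48 (SE 0.69, edgeR adjusted p = 8.09e-05). Fam50b passed the filter only through the WT libraries, so that among tested genes it had to be lower in the cKO. For Fam50a in sperm, counts were 548, 705 and 689 for WT against 296, 487 and 649 for the KO, and the log2 fold change was -0.76 (edgeR adjusted p = 0.0393), which is below the fold change threshold.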
